A study of Mus musculus with 10 samples.

Results

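The genes of the proteasome were read in primary mouse MLL-AF9 acute myeloid leukaemia with and without the Polycomb repressive complex PRC2. They were the genes whose single symbol starts with Psma, Psmb, Psmc, Psmd or Psme and a digit, without Psmb8 and Psmb9, with the probe set of the highest mean kept for each gene. The rule gave 42 of the 20564 genes tested, from 86 probe sets. One of them, Psmc3ip, encodes a meiotic recombination factor that is named for binding a proteasome subunit and is not itself one, which leaves 41 subunits, chaperones and activators.

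Total RNA from 10 samples was amplified with a NuGEN Ovation Pico kit and hybridised to expression arrays: 4 Ezh2-null, 3 Eed-null and 3 WT samples, called biological replicates by the submitters. Ezh2 is a catalytic and Eed a core subunit of PRC2, which methylates histone H3 and represses its target genes. All 10 came from leukaemic mice of the C57B/6 background and carried MLL-AF9 on a retrovirus marked with GFP. The recipients had been irradiated with 600 cGy and injected with 100000 cells of replated leukaemic colonies. The WT mice shared every agent with the null mice: pIpC was given 2 to 3 weeks after transplantation to switch on Cre, and cells were sorted from bone marrow as live, GFP+ and YFP+, where YFP marks past Cre activity. The promoter that drives Cre, and the colonies and mice behind each array, are not given in the sources used here, so p-values measure the spread between these samples.

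The proteasome is the barrel-shaped protease that degrades proteins tagged with ubiquitin. Its 20S core has outer rings of alpha subunits, which gate the entry, and inner rings of beta subunits, of which Psmb5, Psmb6 and Psmb7 cut. The 19S cap binds ubiquitin chains, removes them and unfolds the substrate with a ring of ATPases, and other activators (the Psme genes) can take its place. In immune cells Psmb8, Psmb9 and Psmb10 replace the cutting subunits to form the immunoproteasome, which makes peptides for class I antigen presentation.

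The median log2 intensity of all genes lay between 7.42 and 7.49 on every array. Eed was lower on the Eed-null arrays, at 8.69, 8.34 and 8.67, against 10.52, 10.20 and 10.65 on the WT arrays. Ezh2 read 9.19, 9.21, 9.36 and 8.91 on the Ezh2-null arrays, against 10.25, 9.35 and 10.44 on the WT arrays, so that WT replicate 2 did not stand above the highest Ezh2-null array. Of the 22 granulocyte genes measured from a list of 25, 22 lay above the array median on every array. The erythroid list (5 genes), the T and NK cell list (6 genes), the B cell list (4 genes) and the stromal and endothelial list (6 genes) had array means between 6.24 and 7.19. Above the array median on every array were 2 of the 4 B cell genes and 1 of the 6 stromal and endothelial genes. The same count was 0 for the erythroid list and 0 for the T and NK cell list. Mpo, which encodes the granule enzyme myeloperoxidase, read 12.58 to 13.55.

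Of the 42 genes, 40 lay above the lowest 40% of all genes by mean level. The exceptions were Psma8, an alpha subunit of germ cells, at 5.65 to 7.53 over the 10 arrays, and Psmb11, a beta subunit of the thymus cortex, at 5.48 to 6.06. The brightness of a probe set also depends on its sequence, so these log2 intensities do not rank the genes by transcript number. In the alpha ring, Psma6 had the brightest probe set, at 12.56, 12.78, 12.83 and 12.74 in Ezh2-null, 12.69, 12.79 and 12.67 in Eed-null, and 12.68, 12.65 and 12.81 in WT. The constitutive beta ring ran from Psmb4, at 11.30 to 12.09, to Psmb5, the target of bortezomib, at 9.95 to 10.88. Among the ATPases Psmc2 read 10.63 to 11.20 and Psmc5 8.81 to 9.98. In the non-ATPase part of the cap Psmd14, the deubiquitinase, read 11.22 to 12.11 and Psmd3 8.49 to 8.92. The assembly chaperones lay between Psmd9, at 7.71 to 9.62, and Psmd5, at 9.92 to 10.88, and the activators between Psme4, at 8.84 to 9.79, and Psme1, at 11.62 to 12.53. Psma3 was read by a dim probe set alone (6.99 to 9.30), because the bright one also carries the symbol Gm13835. That shared probe set read 11.64, 11.69, 11.65 and 11.73 in Ezh2-null, 11.14, 11.62 and 11.45 in Eed-null, and 11.67, 11.53 and 11.80 in WT.

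**Figure D1:**
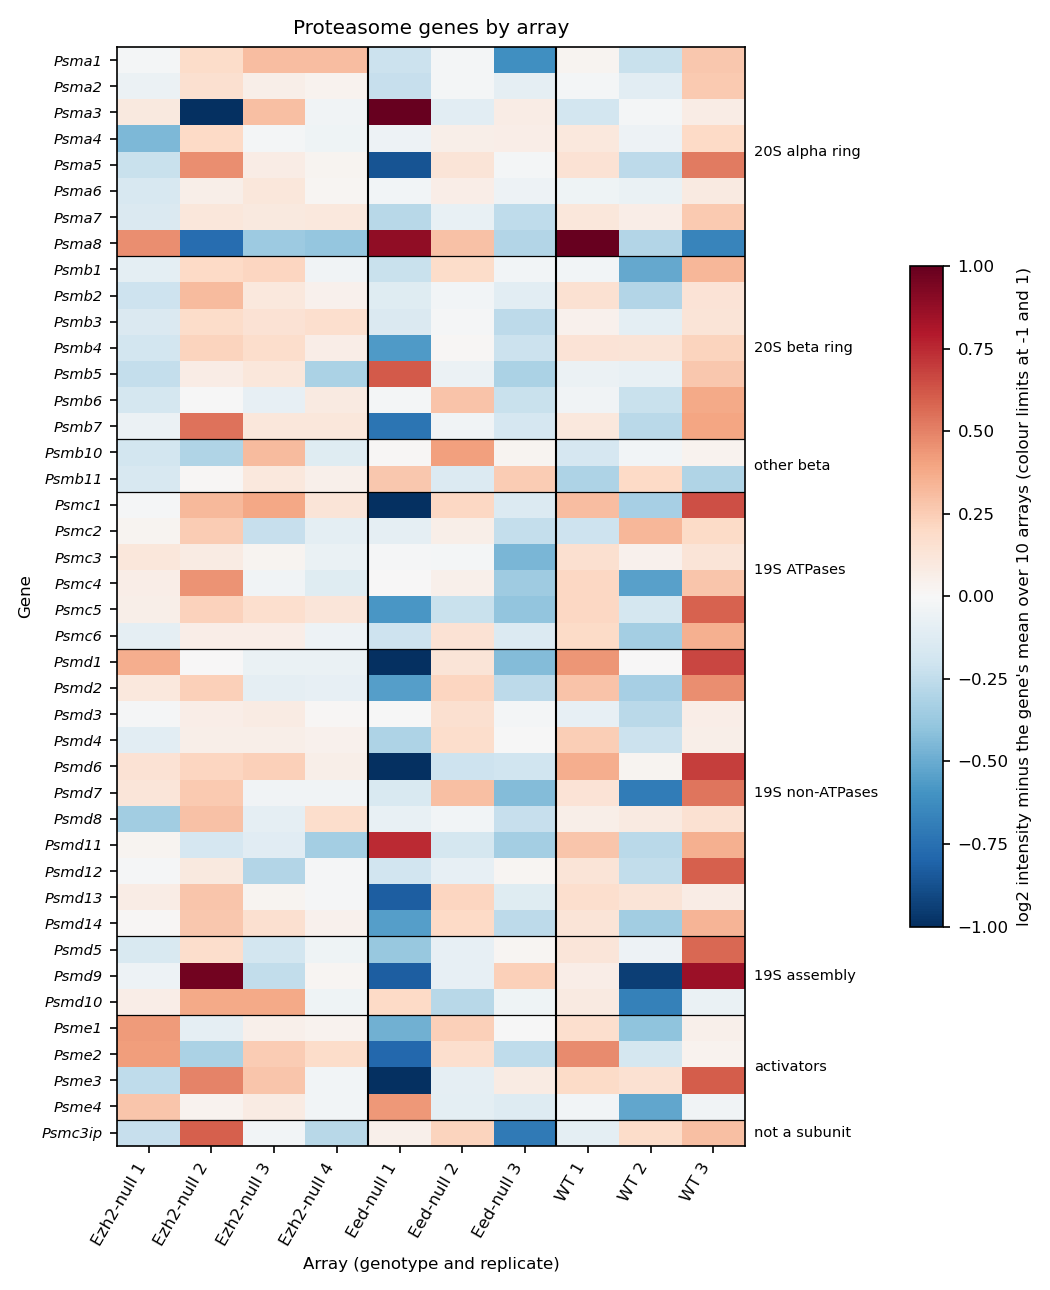
Each cell gives the log2 intensity of a gene (rows, by sub-complex) on an array (columns, by genotype and replicate) minus the mean of that gene over the 10 arrays, with colours ending at -1 and 1. WT replicate 3 is mostly red and WT replicate 2 mostly blue, while Eed-null replicate 1 holds deep blue cells for Psmc1, Psmd1, Psmd6 and Psme3.

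The genes moved together between arrays of one genotype. Over the 42 genes the mean log2 level was 10.38, 10.07 and 10.52 in WT replicates 1 to 3. In WT, 31 of 42 genes had their highest value in replicate 3 and 34 their lowest in replicate 2, against 32.5% and 28.6% of all genes. Both held for 27 of 42, against 18.3% of all genes. The order held for most of the core and the cap: replicate 2 was lowest of the WT arrays for 6 of 8 alpha genes, all 7 constitutive beta genes, 5 of 6 ATPase genes and 9 of 11 non-ATPase genes. WT replicate 3 exceeded WT replicate 2 in 38 of 42 genes, by a median of 0.46, where the median of all genes was -0.07. The chaperone gene Psmd9 showed the widest gap, 1.80.

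Arrays of the null groups differed too. The 42-gene mean was 10.23, 10.39, 10.32 and 10.25 in Ezh2-null replicates 1 to 4, with 24 of 42 genes highest in replicate 2 and 21 lowest in replicate 1, against 28.5% and 37.8% of all genes. In Eed-null it was 10.01, 10.31 and 10.09, with 28 of 42 genes highest in replicate 2 and 24 lowest in replicate 1, against 28.9% and 33.5% of all genes. The range of the 3 WT arrays, 10.07 to 10.52, enclosed every Ezh2-null value and 2 of the 3 Eed-null values. The median SD between arrays was 0.166 in Ezh2-null, 0.275 in Eed-null and 0.295 in WT over the 42 genes, and 0.181, 0.218 and 0.214 over all genes in the same order of groups. Over genes above the lowest 40% by level, where 40 of the 42 lie, it was 0.218, 0.268 and 0.261.

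Other gene lists differed between the same arrays. The 24 Myc and nucleolar genes averaged 10.12 in Ezh2-null replicate 2, against 9.55 to 9.74 in the other Ezh2-null arrays, and 9.62, 9.39 and 10.58 in WT replicates 1 to 3. In Eed-null they averaged 9.31, 9.82 and 9.58. In every group the array with the highest proteasome mean thus also had the highest mean of Myc and nucleolar genes. The granulocyte list was lowest in those arrays, at 11.86 in Ezh2-null replicate 2, 11.75 in Eed-null replicate 2 and 10.81 in WT replicate 3. The other arrays read 12.00 to 12.33 in Ezh2-null, 12.12 and 12.06 in Eed-null, and 12.02 and 11.94 in WT. Cell cycle genes (20) were highest in the same arrays, at 10.42 in Ezh2-null replicate 2, 10.16 in Eed-null replicate 2 and 10.55 in WT replicate 3, against 9.93 to 10.35, 9.29 to 9.73 and 10.04 to 10.30 in the others of each group. The monocyte and macrophage list (11 genes) averaged 9.92, 8.94, 9.39 and 9.61 in Ezh2-null, 8.19, 9.41 and 9.10 in Eed-null, and 10.10, 10.15 and 9.28 in WT. Elane, which encodes neutrophil elastase, read 10.61 in Eed-null replicate 1, against 12.09 to 12.78 on the other arrays. The part of cell maturity or cell mixture in the proteasome values was not tested. In these bulk samples, fewer cells of a type and less RNA per cell cannot be told apart.

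**Figure D2:**
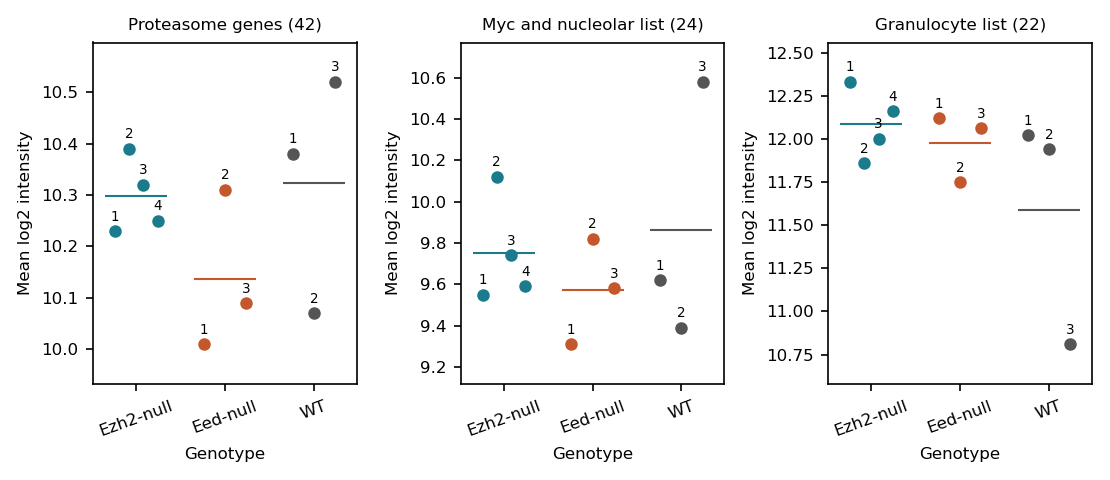
Points give the mean log2 intensity over a gene list on each array, with the replicate number above the point and a line at the group mean, for the 42 proteasome genes, 24 Myc and nucleolar genes and 22 granulocyte genes. WT replicate 3 is the highest array for the proteasome and Myc lists (10.52 and 10.58) and the lowest for the granulocyte list (10.81), and the 3 vertical axes differ.

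The comparison of Ezh2-null with WT asked whether loss of the main catalytic subunit of PRC2 altered these genes. None of the 42 genes passed (limma, adjusted p over all genes of 0.05), against 0.0243% of all genes. None reached an unadjusted p under 0.05, which 3.74% of all genes did, and none separated the groups without overlap, which 2.21% of all genes did upward and 2.79% downward (5% in all). Of the 42, 25 were lower in Ezh2-null, with a median log2 difference of -0.04, beside 55.3% and -0.02 for all genes. The number lower was 36 without WT replicate 2 and 11 with the granulocyte level as a covariate, with medians of -0.13 and 0.12. Differences ran from -0.31 for Psma8 and Psmd1 to 0.41 for Psmd10.

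Single genes show the size of that spread. Psmd10 (gankyrin), a chaperone of cap assembly known as an oncoprotein, read 9.94, 10.25, 10.25 and 9.83 in Ezh2-null, against 9.96, 9.20 and 9.81 in WT. Its difference was 0.41 (SE 0.22, 95% interval -0.08 to 0.90). Leaving out 1 array, that difference ranged from 0.18, without WT replicate 2, to 0.56, without WT replicate 1. Psme4, an activator linked to the degradation of acetylated histones, read 9.63, 9.39, 9.44 and 9.33 in Ezh2-null, against 9.33, 8.84 and 9.32 in WT, a difference of 0.29 (SE 0.20). Its lowest Ezh2-null value and its highest WT value were the same to 2 decimals. Psmd5, another cap chaperone, read 10.15, 10.48, 10.12 and 10.26 in Ezh2-null, against 10.42, 10.25 and 10.88 in WT. Psmd1, the large scaffold of the cap base, read 10.94, 10.58, 10.51 and 10.51 in Ezh2-null, against 11.02, 10.58 and 11.25 in WT. Psmd12, a subunit of the cap lid, read 10.06, 10.17, 9.78 and 10.06 in Ezh2-null, against 10.20, 9.83 and 10.67 in WT. The groups overlapped for all of these, with differences of -0.26 (SE 0.19) for Psmd5, -0.31 (SE 0.27) for Psmd1 and -0.22 (SE 0.21) for Psmd12. Without WT replicate 3 that of Psmd5 was -0.08 and that of Psmd1 -0.16, and without WT replicate 2 that of Psmd1 was -0.50 and that of Psme4 0.12. With the granulocyte covariate Psmd5 was at -0.03 and Psmd1 at -0.11. The adjusted p was 1.00 for every gene named in this comparison (limma). By sub-complex, medians were -0.08 for the 8 alpha genes, 0.06 for the 7 constitutive beta genes, -0.07 for the 6 ATPase genes, -0.09 for the 11 non-ATPase genes and 0.10 for the 4 activators.

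**Figure D3:**
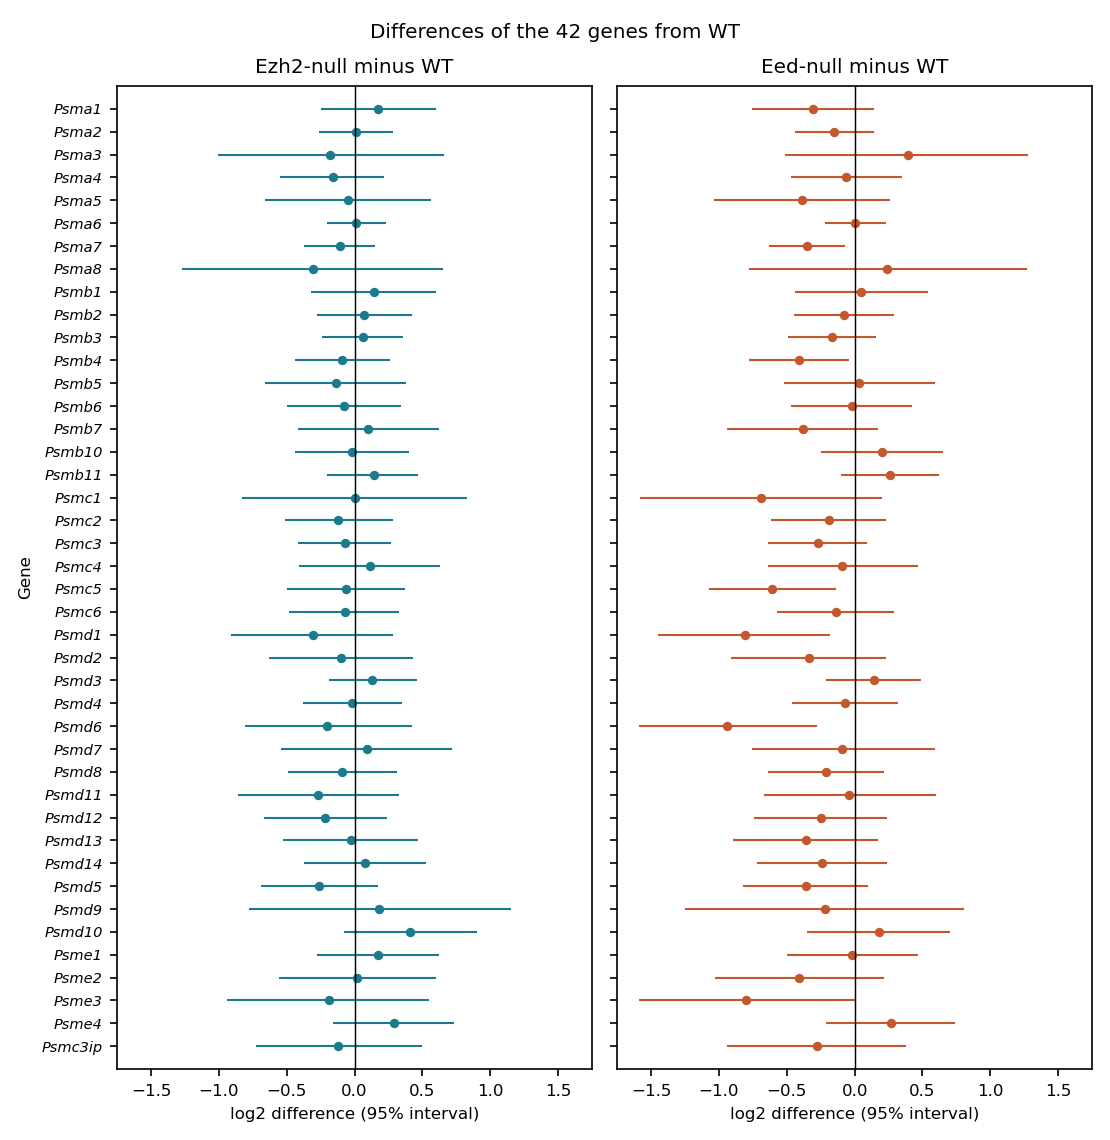
Points give the log2 difference of each of the 42 genes from WT and lines its 95% interval (limma), for Ezh2-null on the left and Eed-null on the right. All 42 intervals on the left include 0, and on the right those of Psmd6, Psmc5, Psmd1, Psma7 and Psmb4 lie below 0, with that of Psme3 ending at 0.00, before any adjustment for the number of genes.

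The comparison of Eed-null with WT asked the same where the core subunit is lost. Again none of the 42 genes passed (limma, smallest adjusted p = 0.320, for Psmd6), against 0.131% of all genes. At an unadjusted p under 0.05 there were 6 genes, all lower in Eed-null, or 14.3% of the 42, against 10.4% of all genes in either direction, 4.98% lower and 5.39% higher. In 7 of the 42 every Eed-null value lay below every WT value, 16.7%, against 5.31% of all genes. In none did every value lie above, against 7.49% of all genes (12.8% in either direction). Of the 42, 32 were lower in Eed-null, with a median log2 difference of -0.18, beside 45.2% and 0.03 for all genes. With the lowest 40% of genes by level left out, 40 of the 42 remained, with a median of -0.20, beside -0.01 for all genes kept. In that fit 6 of 40 had an unadjusted p under 0.05 (limma), against 12.2% of the genes kept. The 42 were measured on the same arrays and moved together within genotypes, so these counts do not stand for 42 separate observations.

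The count by unadjusted p turned on single arrays. Without WT replicate 3 there was 1 of 42 genes at an unadjusted p under 0.05, and without Eed-null replicate 1 also 1 of 42. The shares of all genes in those fits were 8.67% and 8.97%. The median difference was then -0.08 and -0.12. Without Eed-null replicate 2 the count was 9 of 42, against 13.2% of all genes. With the granulocyte level as a covariate it was 3 of 42, against 9.61%. The median difference was -0.06 with the granulocyte or with the Myc and nucleolar level as a covariate, and 25 or 26 of the 42 genes were then lower. Without WT replicate 2 the median was -0.28, and 21 of 42 genes lay wholly below WT, against 10.3% of all genes. Wholly above WT lay 1 of 42, against 17.9% of all genes. When either WT replicate 3 or Eed-null replicate 1 was left out, 7 of 42 lay wholly below, against 9.16% and 9.93% of all genes. In those 2 cases 2 and 0 of 42 lay wholly above, against 11.8% and 11.9% of all genes. Leaving out an array can raise the number of genes without overlap but cannot lower it, so an unchanged number is no check.

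The upstream sequence of the genes named in both comparisons of Eed-null is shown here, to set the letters before the start of transcription beside the values. Psma7, Psmc5 and Psmd6 were among the 5 genes with the smallest p against WT and against Ezh2-null, comparisons that share the Eed-null arrays. The 250 bases before the start are given 5′ to 3′ from RefSeq (GRCm38.p6), with capitals for matches, on either strand, to any of 4 motifs: the antioxidant response element (Nfe2l1 and Nfe2l2, known activators of proteasome genes), CCAAT (NF-Y), CACGTG (the E-box of Myc) and CCGGAAG (ETS factors).
Psmd6, chr14:14120946-14121195, minus strand: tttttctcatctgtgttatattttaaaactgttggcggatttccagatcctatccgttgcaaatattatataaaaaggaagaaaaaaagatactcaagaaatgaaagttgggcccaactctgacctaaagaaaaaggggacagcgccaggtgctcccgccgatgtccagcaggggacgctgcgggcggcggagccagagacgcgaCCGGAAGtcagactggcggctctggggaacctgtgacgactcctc
Psmc5, chr11:106255935-106256184, plus strand: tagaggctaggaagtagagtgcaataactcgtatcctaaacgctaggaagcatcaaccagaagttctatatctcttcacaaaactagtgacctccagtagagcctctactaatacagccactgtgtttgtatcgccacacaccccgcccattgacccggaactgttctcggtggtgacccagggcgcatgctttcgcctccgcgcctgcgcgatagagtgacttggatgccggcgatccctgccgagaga
Psma7, chr2:180042465-180042714, minus strand: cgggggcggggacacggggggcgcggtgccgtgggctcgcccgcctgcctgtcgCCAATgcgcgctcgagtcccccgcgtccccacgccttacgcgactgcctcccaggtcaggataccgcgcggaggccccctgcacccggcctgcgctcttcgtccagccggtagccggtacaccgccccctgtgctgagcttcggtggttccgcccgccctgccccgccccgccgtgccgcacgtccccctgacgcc
Psmd6 held an ETS match, Psma7 a CCAAT match and Psmc5 none of the 4. RefSeq promoters of 300 bases, with 50 after the start, were at hand for 35 of the 42 genes, in 38 entries, leaving Psma8, Psmb1, Psmb2, Psmb7, Psmc3, Psmd3 and Psmd7. CCGGAAG stood in 14 of these 38 (36.8%), beside 8.86% of all 32851 promoters. Its 13 genes were Psma6 of the core, the activators Psme3 and Psme4, Psmc3ip, and genes of the cap. Those of the cap were Psmc1, Psmc2, Psmc6, Psmd2, Psmd4, Psmd6, Psmd11, Psmd12 and Psmd13. CCAAT stood in 36.8% against 37.4%, the antioxidant response element in 10.5% against 13%, and CACGTG in 10.5% against 7.15%. Matches of different motifs overlapped in 0 of the 38. The median GC content was 58.2% in the 38 and 52.7% in all promoters, and a match is only a description of the letters.

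Psmd6, a subunit of the cap lid, read 8.68, 9.80 and 9.81 in Eed-null, against 10.37, 10.04 and 10.70 in WT, with 10.15, 10.22, 10.25 and 10.07 in Ezh2-null. Every Eed-null value was below every other value, and replicate 1 was the lowest by far. The difference from WT was -0.94 (SE 0.30, 95% interval -1.59 to -0.28), or 0.522-fold, and -0.56 without Eed-null replicate 1. A second Psmd6 probe set differed by -0.42. Psmc5, an ATPase of the cap base, read 8.81, 9.17 and 9.0 in Eed-null, against 9.60, 9.22 and 9.98 in WT, with 9.45, 9.62, 9.56 and 9.51 in Ezh2-null. The groups did not overlap, but Eed-null replicate 2 and WT replicate 2 lay 0.05 apart, and the difference was -0.61 (SE 0.21; limma, adjusted p = 0.365). Psmd1 read 9.55, 10.71 and 10.15 in Eed-null, against 11.02, 10.58 and 11.25 in WT, and overlapped through both replicates 2. Its difference was -0.81 (SE 0.29; limma, adjusted p = 0.377), and -0.52 without Eed-null replicate 1 and -0.45 with its probe sets averaged.

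Psma7, an alpha subunit, read 11.67, 11.87 and 11.69 in Eed-null, against 12.06, 12.01 and 12.21 in WT. Its 3 Eed-null values lay close together and below all WT values, with a difference of -0.35 (SE 0.13; limma, adjusted p = 0.383) and of -0.40 in a second probe set. Psmb4, a non-catalytic beta subunit, read 11.30, 11.88 and 11.65 in Eed-null, against 12.00, 11.99 and 12.09 in WT. The groups did not overlap, and the difference was -0.41 (SE 0.17; limma, adjusted p = 0.439), -0.17 in a second probe set and -0.26 without Eed-null replicate 1. Psme3, an activator of the nucleus that serves degradation without ubiquitin, read 10.22, 11.57 and 11.74 in Eed-null, against 11.85, 11.81 and 12.26 in WT. Its replicate 1 stood more than 1 log2 unit below the other Eed-null values, and the difference was -0.80 (SE 0.36; limma, adjusted p = 0.479). The other genes without overlap were the ATPase gene Psmc3 (10.49, 10.48 and 10.04 in Eed-null, against 10.66, 10.54 and 10.63 in WT) and the lid gene Psmd8 (9.68, 9.73 and 9.53 in Eed-null, against 9.82, 9.85 and 9.91 in WT). Both gaps between the groups were narrower than 0.1.

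**Figure D4:**
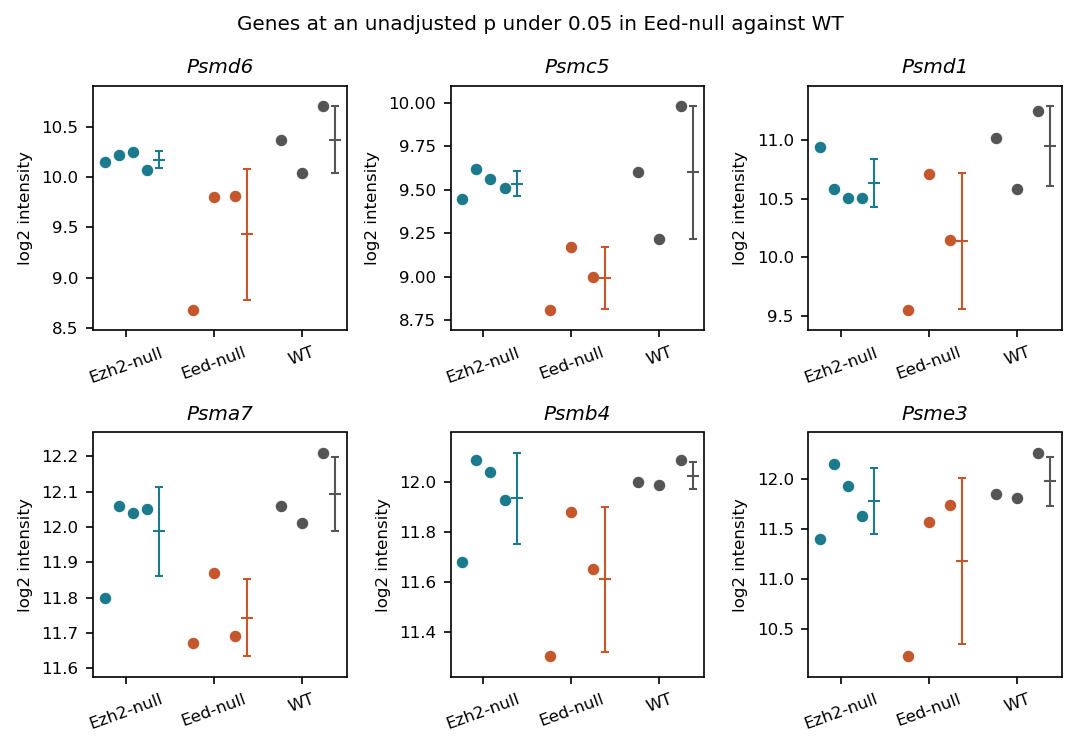
Points give the log2 intensity on each array, and the bars beside them the mean and SD of the group, for the 6 genes at an unadjusted p under 0.05 in Eed-null against WT. In Psmd6, Psmc5, Psma7, Psmb4 and Psme3 the 3 Eed-null points lie below the 3 WT points, and Eed-null replicate 1, drawn leftmost, is the lowest point of its group in all 6.

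By sub-complex, all 6 ATPase genes were lower in Eed-null than in WT, with a median of -0.23, and 10 of 11 non-ATPase genes, with a median of -0.24. In the core, 5 of 8 alpha genes (median -0.11) and 5 of 7 constitutive beta genes (median -0.08) were lower. None of these passed over all genes. Of the catalytic subunits, Psmb7 read 9.56, 10.25 and 10.12 in Eed-null, against 10.39, 10.02 and 10.68 in WT. Psmb5 read 10.88, 10.21 and 9.95 against 10.21, 10.19 and 10.54, and Psmb6 10.25, 10.56 and 10.05 against 10.24, 10.05 and 10.65. All 3 pairs of groups overlapped. Eed-null replicate 1 was the lowest Eed-null array for Psmb7 and the highest for Psmb5. Whether these genes differed from one another was not tested.

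The genes tied to antigen presentation were set apart because interferon induces them. Psmb10, the inducible partner of Psmb7, read 9.94, 9.82, 10.44 and 10 in Ezh2-null, 10.13, 10.53 and 10.15 in Eed-null, and 9.95, 10.09 and 10.16 in WT. It differed from WT by -0.02 (SE 0.19, 95% interval -0.44 to 0.40) under Ezh2 loss and by 0.20 (SE 0.20, 95% interval -0.25 to 0.65) in Eed-null, and by 0.22 (SE 0.19) between Eed-null and Ezh2-null. Psme1 and Psme2 encode the paired subunits of an interferon-inducible activator. Psme1 read 12.53, 12.01, 12.15 and 12.14 in Ezh2-null, 11.62, 12.34 and 12.10 in Eed-null, and 12.27, 11.70 and 12.15 in WT. Psme2 read 10.92, 10.19, 10.76 and 10.69 in Ezh2-null, 9.72, 10.67 and 10.25 in Eed-null, and 10.98, 10.33 and 10.54 in WT. Eed-null replicate 1 was the lowest array for both. Psme1 differed from WT by 0.17 (SE 0.20) in Ezh2-null and -0.02 (SE 0.22) in Eed-null, and Psme2 by 0.02 (SE 0.26) and -0.41 (SE 0.28). The Eed-null difference of Psme2 was -0.16 without Eed-null replicate 1, -0.64 without Eed-null replicate 2 and -0.22 without WT replicate 1. None passed (limma, adjusted p of 1.00 for Ezh2-null, and of 0.655 to 0.988 for Eed-null). Outside the rule, Psmb9 differed from WT by 0.33 (SE 0.20) in Ezh2-null and 0.67 (SE 0.21) in Eed-null, and Psmb8 by -0.28 (SE 0.19) and -0.14 (SE 0.20). The Ezh2-null difference of Psmb9 was 0.21 without WT replicate 2 and 0.20 without Ezh2-null replicate 3. Neither gene passed over all genes (limma, smallest adjusted p = 0.317, for Psmb9 in Eed-null). The interferon response list (18 genes) had array means of 7.97 to 8.79 for Ezh2-null, 8.35 to 8.79 for Eed-null and 8.0 to 8.37 for WT, and its part in these values was not tested.

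Eed-null was also set against Ezh2-null directly, which compares the loss of either subunit. None of the 42 genes passed (limma, smallest adjusted p = 0.467, for Psmc5), against 0.0778% of all genes. Of the 42, 33 were lower in Eed-null, with a median of -0.17, beside 42% and 0.04 for all genes. With the lowest 40% of genes by level left out, the median of all genes kept was -0.01. At an unadjusted p under 0.05 there were 3 genes (7.14%), all lower, against 9.18% of all genes (3.99% lower and 5.19% higher): Psmc5 at -0.54 (SE 0.20), Psmd6 at -0.74 (SE 0.28) and Psma1 at -0.48 (SE 0.19). The same 3 separated the groups without overlap, 7.14% against 3.74% of all genes, and none lay wholly above, against 6.81% of all genes (10.5% in either direction). Psma1, an alpha subunit, read 10.15, 10.34 and 9.75 in Eed-null, against 10.34, 10.55, 10.67 and 10.67 in Ezh2-null, with the nearest arrays together at 10.34. Next by p came Psmb7 at -0.48 (SE 0.23) and Psma7 at -0.24 (SE 0.12). Psmb7 read 10.23, 10.83, 10.40 and 10.40 in Ezh2-null, where replicate 1 lay below the highest Eed-null value. Without Eed-null replicate 1 the count at an unadjusted p under 0.05 was 1 of 42, against 7.78% of all genes. Without Eed-null replicate 2 it was 11 of 42, against 11.9%. With array weights it was 6 of 42, against 11.5%, and with the granulocyte level as a covariate 8 of 42, against 11.2%. Without Eed-null replicate 1 the differences were -0.37 for Psmd6 and -0.27 for Psmb7, and without Eed-null replicate 3 that of Psma1 was -0.31.

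Several of the 42 genes had more than 1 probe set, which gave a second reading on the same arrays. Of 30 further probe sets above the lowest 40% of genes, from 19 genes, 20 had the sign of the one kept in Eed-null against WT, and the median gap between them was 0.14 on the log2 scale. In Ezh2-null against WT 17 of 30 had the same sign, with a median gap of 0.10. Psmd11, a subunit of the lid, had 6 probe sets that differed among themselves: its kept probe set differed by -0.04 in Eed-null against WT and the others by -0.57 to 0.50. A probe set shared by Psmd11 and Gm14048 read 9.73, 10.93 and 9.68 in Eed-null, against 10.49, 11.03 and 11.01 in WT.

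Genes that build, regulate or feed the proteasome were read beside it, 30 of 32 listed. None passed in any of the 3 comparisons (limma). In Eed-null against WT 23 of 30 were lower, against 45.2% of all genes, with a median of -0.22. Of these 30, 6 had an unadjusted p under 0.05 (20%), against 10.4% of all genes. At that p 5 of the 30 were lower, against 4.98% of all genes, and 1 of the 30 was higher, against 5.39%. Psmf1, an inhibitor of the core, differed by -0.63 (SE 0.24), the ubiquitin shuttle gene Ubqln1 by -0.74 (SE 0.29) and the assembly chaperone gene Psmg3 by -0.57 (SE 0.24), with adjusted p of 0.408 to 0.458 (limma). Without Eed-null replicate 1 the difference was -0.41 for Ubqln1 and -0.40 for Psmf1. With all probe sets of a gene averaged it was -0.13 for Ubqln1 and -0.28 for Psmg3. In Ezh2-null against WT 19 of 30 were lower, against 55.3% of all genes, with a median of -0.03 and 0 at an unadjusted p under 0.05, against 3.74%. The assembly chaperone gene Psmg4 differed by -0.52 (SE 0.29) and the shuttle gene Ubqln4 by -0.52 (SE 0.31). Psmg4 was at -0.10 with the granulocyte covariate, -0.22 without WT replicate 3 and -0.82 without WT replicate 1. Ubqln4 was at -0.33 without WT replicate 2 and -0.80 without WT replicate 1. In Eed-null against Ezh2-null 20 of 30 were lower, against 42% of all genes, with Ubqln1 at -0.74 (SE 0.27; -0.26 with probe sets averaged and -0.41 without Eed-null replicate 1) and the small cap subunit gene Sem1 at -0.19 (SE 0.09). Nfe2l1, the transcription factor that restores proteasome genes when the protease is blocked, differed from WT by -0.16 (SE 0.18) in Ezh2-null and 0.15 (SE 0.19) in Eed-null.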

How the data were processed

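The deposited value table holds array intensities that the authors made with RMA, per the submitters' processing notes; its version, the genome build and other settings are not given in the sources used here. The intensities are on a linear scale, and log2 was taken with values under 1 set to 1. Another deposited table of intensities, in which the authors had combined 7 of the arrays with another series by ComBat, per the file header, served only as an alternative; the 9 columns of that other series stayed unused. Controls (64 probe sets) and probe sets with no symbol (5820), several symbols (1399) or a date (56) were left out, and outdated symbols were updated through RefSeq (GRCm38.p6). Of the 37762 left, the brightest by mean was kept for each of 20564 genes.

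Differences were fitted by limma 3.58.1 under R 4.3.3 (all 10 arrays in 1 fit, eBayes with trend, two-sided, Benjamini-Hochberg over all genes, called under 0.05). SE and intervals are limma's, and the number of arrays limits the precision. The test was also tried on simulated data, with the mean and spread of each gene taken from these arrays. Differences are named for the 5 members with the smallest p in each comparison, for Psmb10, Psme1 and Psme2, and for up to 3 pathway genes, of which some are not reported here; Psme3, Psmc3, Psmd8, Psmb5, Psmb6, Psmd11 and Nfe2l1 were added after their values were seen. The members and lists were chosen with earlier results of these data known. Alternatives changed the normalization, probe sets, filter, pseudocount, weights, covariates, block and arrays used.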

Additional observations from a re-analysis of the deposited data

Results flagged for a closer look

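In the 4 Ezh2-null arrays, 4 of the 42 genes had an array set apart from the others by a gap that filled most of the range of the group (Dixon's test, 95% critical value 0.829). That is 9.52% of the 42, against 6.12% of all genes, and chance gives about 1 in 20 groups. The array was Ezh2-null replicate 1 each time, as for 2.26% of all genes. Psma7 read 11.80 there, against 12.04 to 12.06 in the others, Psmb3 11.21, against 11.50 to 11.54, and Psmd4, a ubiquitin receptor of the cap, 10.82, against 10.97 to 10.98. Psmd1 ran the other way, at 10.94, against 10.51 to 10.58.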

How the results depend on the processing

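None of the 42 genes passed in any comparison under any alternative (21 for Ezh2-null against WT, 20 for the others, which the ComBat table does not hold). The median difference of the 42 ranged from -0.13 to 0.12 for Ezh2-null against WT, changing sign, from -0.28 to -0.06 for Eed-null against WT and from -0.24 to -0.09 for Eed-null against Ezh2-null. Over all genes, the count called in Ezh2-null against WT was 5, and 0 with the replicate block, 2 with quantile normalization, 3 without the trend, 3 with the granulocyte covariate and 0 to 4 leaving out 1 array; the counts of 0 (limma) stood beside 655 genes at an unadjusted p under 0.05 with the block 706 without WT replicate 2, and 672, 605 and 586 without Ezh2-null replicates 1, 3 and 4. In Eed-null against WT it was 27, 1 when the fit held only the groups compared, 16 under the replicate block and 12 to 42 leaving out 1 array. In Eed-null against Ezh2-null it was 16, and 4 with the replicate block, 28 when probe sets were averaged, 50 with array weights, 27 with the granulocyte covariate and 13 to 36 leaving out 1 array. The causes of these changes were not tested. Leaving out 1 array changes both the number of samples and which samples are used. The replicate numbers share no stated batch and deviations of same-numbered arrays correlated at -0.233 to 0.361, so the arrays are not taken as paired. With the block the median differences were -0.02, -0.18 and -0.21 in the same order of comparisons. Only Ezh2-null has a replicate 4, so the block fits that array exactly. The differences with the block thus equal those without Ezh2-null replicate 4 and show no effect of pairing.

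Signs of differences near 0 turned. In Ezh2-null against WT, Psmb10 was 0.01 with quantile normalization, 0.05 with array weights, 0.08 with the granulocyte covariate and 0.03 with the ComBat table; Psme2 was -0.06 with array weights and -0.03 with the granulocyte covariate; Psmd12 was 0.01 with that covariate. Leaving out 1 array, these ranged from -0.15 to 0.06 for Psmb10, -0.12 to 0.20 for Psme2, -0.42 to 0.00 for Psmd12 and 0.00 to 0.29 for Psme1. In Eed-null against WT, Psme1 was 0.03 with quantile normalization, 0.02 with the granulocyte covariate, 0.05 with the Myc and nucleolar covariate and -0.19 to 0.18 leaving out 1 array, and Psmb8 was 0.08 when probe sets were averaged and -0.25 to 0.01 leaving out 1 array. In Eed-null against Ezh2-null, Psme1 was -0.35 to 0.01 leaving out 1 array. The no-overlap counts without single arrays were added after seeing the data.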
